A study of Danio rerio with 13 samples.

Results

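Nuclear genes of oxidative phosphorylation were followed in preparations labelled as hearts of zebrafish embryos by complex of the respiratory chain. Members were taken by name, as genes whose symbol began with nduf, uqcr, atp5, cox4 to cox8 or sdha to sdhd, plus cyc1. These were 86 of the 8793 genes that had a probe set with a single symbol. The highest mean signal chose the probe set used for each gene, from 93 probe sets in all. A further 2 probe sets carried a second symbol and were left out. Of the 86 genes, 74 encode structural subunits, with 31 in complex I, 4 in complex II, 8 in complex III, 15 in complex IV and 16 in complex V. The other 12 comprise 6 assembly factors of complex I (ndufaf), 3 of complex II (sdhaf), the supercomplex factor cox7a2l and the ATPase inhibitors atp5if1a and atp5if1b. The ndufa4 genes were placed in complex IV, where the protein is now known to sit.

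The series concerns autophagy in the forming heart, and the comparisons ask what knockdown of an autophagy gene changed. Hearts at 3 days post-fertilization came from embryos injected at the 1-cell stage with a morpholino (MO) against atg5 (3 arrays), against becn1 (3 arrays) or against atg7 (2 arrays), from embryos given a control MO (2 arrays), and from uninjected embryos (3 arrays). Atg5 and Atg7 serve the conjugation reactions that build the autophagosome, while becn1 encodes Beclin 1, which acts in a lipid kinase complex at the start of autophagy. The labels name embryo hearts as the source, but their RNA protocol speaks of tumors, and the conflict could not be settled from the labels. A morpholino is a synthetic antisense oligonucleotide. Whether each one blocked translation or splicing, the genetic strain, and the number of embryos per sample are not stated in the labels. The p-values therefore speak for the variation among these heart preparations. Each array is named below by group and number, and the control MO arrays carry the numbers 2 and 3.

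Oxidative phosphorylation is the final stage of respiration in the inner mitochondrial membrane. Complex I takes electrons from NADH and complex II from succinate. Complex III passes them to cytochrome c and complex IV to oxygen. Complex V, the ATP synthase, uses the proton gradient made by complexes I, III and IV. Heart muscle is rich in these enzymes. All complexes but complex II also hold subunits encoded in mitochondrial DNA. None of the 13 listed genes of that kind was named by a probe set here, so they were not analysed here, nor were the mammalian muscle isoforms cox6a2, cox7a1 and cox8b.

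All 86 genes passed the filter on weak signal, and 0 of them had a normalized intensity under 16 on any array. Levels below are log2 intensities after quantile normalization. A difference is the contrast of group means in log2 units from limma fitted to all 13 arrays and 10307 probe sets, given with its standard error (SE), and a call is an adjusted p under 0.05. A level can be compared between arrays for 1 gene but not between genes. The labelled heart tissue was checked with 13 of 18 listed cardiomyocyte genes. Their summed normalized intensity was 1456 to 5444 on the atg5 arrays, 1872 to 5454 on the becn1 arrays, 1373 to 7396 on the atg7 arrays (each time highest on the array numbered 1), 2079 to 2263 on the control MO arrays and 2035 to 3483 on the uninjected arrays. The heart transcription factor gata4 was under 16 on every array, as was tbx5a on every array of the 4 groups other than becn1 MO. So were nkx2.5 on all control MO and uninjected arrays and the troponin gene tnnc1a on all control MO arrays. Genes of other tissues had signal as well. The sum over 10 of 12 listed epidermis genes ran from 13112 on becn1 1 to 20503 on uninjected 1. That of 11 of 15 liver and yolk genes ran from 7205 on becn1 2 to 22409 on uninjected 1. Sums of different genes cannot be compared in level, and the purity of the hearts was not tested. Correlation between arrays over probe sets ran from 0.874 to 0.982. The 3'/5' signal ratio of GAPDH, which climbs as RNA degrades, reached 5.98 on atg7 2 and no more than 3.28 elsewhere. The targeted gene atg5 had 8.24, 8.26 and 8.14 on the atg5 arrays, against 8.22 and 7.87 on the control MO arrays. A morpholino need not lower its target RNA, so these levels do not test the knockdown. The genes becn1 and atg7 were not analysed here.

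The subunit genes moved together from array to array, and 2 arrays stood low. The median deviation of the 74 subunits from their own means over the 13 arrays was 0.18, -0.06 and 0.07 on the atg5 arrays, 0.01, 0.08 and -0.24 on the becn1 arrays, 0.11 and 0.17 on the atg7 arrays, 0.11 and 0.01 on the control MO arrays, and -0.02, -0.07 and -0.37 on the uninjected arrays. The lowest values belonged to uninjected 3 and becn1 3, and the atg5 and becn1 ranges overlapped those of both control groups. Both atg7 arrays lay above all 3 uninjected arrays and at or above both control MO arrays. The pooled SD of these array medians within groups was 0.142 over all subunits. By complex it was 0.174 in I, 0.0980 in II, 0.164 in III, 0.153 in IV and 0.116 in V. This SD describes the spread of single arrays. Where a median difference is set beside it below, it is no standard error of that difference.

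**Figure D1:**
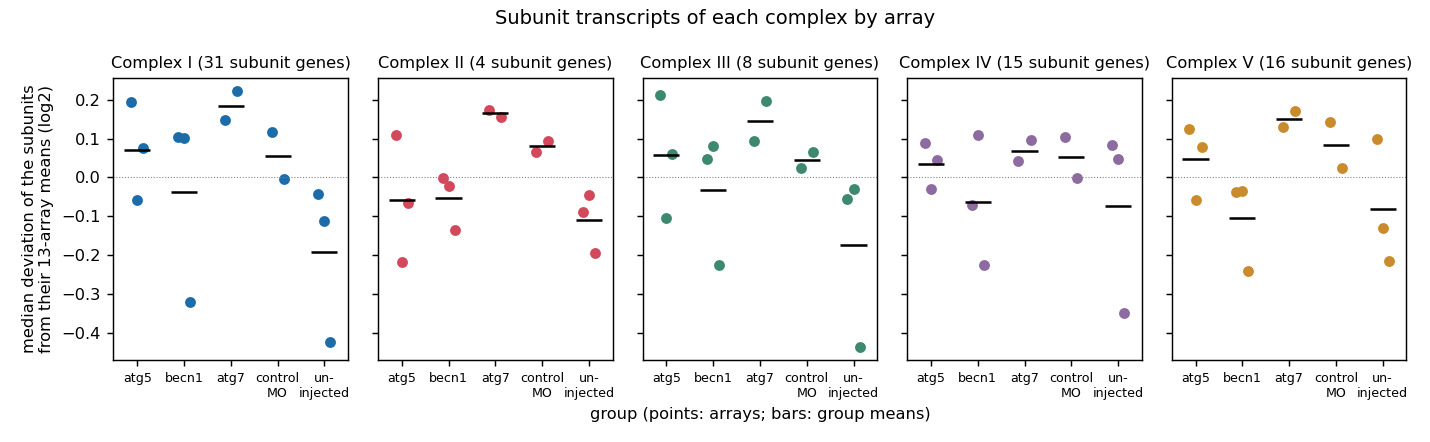
Median deviation (log2) of the subunit genes of complexes I to V from their means over the 13 arrays, with 1 point per array and a bar at each group mean. Array uninjected 3 is lowest in complexes I, III and IV, at -0.42, -0.44 and -0.35, and becn1 3 is next lowest there and lowest in complex V at -0.24.

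Complex I followed this order most widely. On uninjected 3 its 31 subunits lay at -0.42 and on becn1 3 at -0.32, while the other 11 arrays ran from -0.11 on uninjected 2 to 0.22 on atg7 2. Complex II departed from it on the atg5 arrays, with -0.22 on atg5 2, the lowest of its 13 values. Summed intensity of 12 skeletal muscle genes was 13990 on becn1 3 and 14425 on uninjected 3, against 3742 to 16705 on the other arrays, the highest being uninjected 1. Its part in the low arrays was not tested. In bulk RNA, fewer cells of a type and less RNA per cell cannot be told apart.

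No member was called in any comparison. Against control MO, limma called 0 of 86 in the atg5 MO hearts (0% of all probe sets were called), 0 in the becn1 MO hearts (0%), 0 in the atg7 MO hearts (0.0582%) and 0 in the 3 knockdowns pooled with equal weight (0%). It called 0 members in the 3 knockdowns against uninjected hearts (1.22%), 0 in control MO against uninjected hearts (0%), and 0 in the F test of any difference among the 5 groups (0.0776%). At an unadjusted p under 0.05 there were members to name in each comparison. Their share lay below that of all probe sets in the atg5, atg7 and pooled comparisons with control MO and in the F test, and above it in the other 3 comparisons.

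In atg5 MO hearts against control MO, 1 member had an unadjusted p under 0.05, sdhb, which was lower (2.41% of all probe sets in either direction, 0.931% lower). In becn1 MO hearts there were 6, all lower (5.28% of all probe sets, 2.49% lower). They were atp5pf and atp5md of the ATP synthase and cox5ab, cox6a1, cox4i2 and cox7a2a of complex IV. In atg7 MO hearts there were 2, cox4i2 lower and cox4i1l higher (10%), and the same genes made up the 2 of the pooled knockdowns against control MO (5.42%). In the F test there were 5 (13.2%), with the smallest p at atp5md (unadjusted p = 0.0027, adjusted p = 0.24 by limma).

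Against uninjected hearts the members lay higher. In the 3 knockdowns 22 had an unadjusted p under 0.05, all higher, in a comparison where 24.6% of all probe sets did and 15% were higher. They were 16 subunits, with 9 in complex I, 2 in complex III, 2 in complex IV and 3 in complex V, and 6 other members. In control MO hearts against uninjected hearts there were 7, all higher (2.58% of all probe sets, 1.57% higher), namely atp5md, atp5mf, cox5ab, cox7a2a, cox7b, uqcrh and ndufb4. These comparisons share the uninjected arrays. Of the 22, ndufaf6, ndufa5 and ndufs7 had differences of 0.66, 0.64 and 0.39.

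Members were also counted where the arrays of the groups did not overlap. In becn1 MO hearts 18 of 86 lay below both control MO arrays on all 3 arrays (8.2% of all probe sets) and 1 above (10.5%). In atg7 MO hearts 27 lay above (23.8%) and 6 below (18.8%), and in atg5 MO hearts 5 lay above (11.2%) and 12 below (7.64%). In control MO hearts 26 lay above all 3 uninjected arrays (10.9%) and 2 below (7.28%), cox4i1l and ndufs8a. Over all 8 knockdown arrays 0 members lay above both control MO arrays (2.3%) and 1, uqcrh, lay below (1.95%). Against the uninjected arrays 2 members, atp5mj and cox7a2l, lay above (3.79%) and 0 below (2.09%).

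Taken over the 74 subunits, the median difference from control MO was -0.01 in atg5 MO hearts (0.01 over all probe sets), -0.13 in becn1 MO hearts (0.02) and 0.07 in atg7 MO hearts (0.02). Subunits above 0 numbered 31 of 74 in atg5 MO hearts, where 52.2% of all probe sets were above 0, 17 of 74 in becn1 MO hearts (53.4%), and 46 of 74 in atg7 MO hearts (51.9%). The 3 knockdowns together had a median of -0.02 (0.02) with 33 of 74 above 0 (53.8%). The becn1 value rested largely on becn1 3, without which it was -0.03 with 33 of 74 above 0. All these medians were smaller than the 0.142 SD between arrays of a group. On the intensities as deposited, all probe sets lay higher than in control MO by a median of 0.29 in atg5 MO, 0.33 in becn1 MO and 0.27 in atg7 MO hearts, and the sign of the atg5, becn1 and pooled subunit medians turned with them (0.29, 0.24 and 0.31). Relative to the median of all probe sets on that scale the subunits stood at 0.00, -0.09 and 0.11 in atg5, becn1 and atg7 MO hearts.

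Against uninjected hearts the median over the 74 subunits was 0.20 in the 3 knockdowns (0.02 over all probe sets), with 59 of 74 above 0 (52.4%), and 0.19 in control MO hearts (0.00), with 66 of 74 above 0 (50.8%). Without uninjected 3 these medians were 0.09 and 0.10. On the intensities as deposited, all probe sets of control MO hearts lay lower by a median of -0.32 and the subunits at -0.09, which put 69 of 74 subunits above the median of all. Relative to the median of all probe sets the subunits stood at 0.18 in the 3 knockdowns and 0.19 in control MO hearts after quantile normalization. The same values were 0.29 and 0.23 on the deposited scale.

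The 5 complexes differed little in the 3 knockdowns against control MO. Their median differences were 0.02 in complex I, -0.05 in II, -0.02 in III, -0.08 in IV and -0.10 in V. Subunits above 0 numbered 19 of 31 in complex I, 1 of 4 in II, 3 of 8 in III, 6 of 15 in IV and 4 of 16 in V. None of these 5 medians passed the pooled SD of its own complex. As deposited, with all probe sets at 0.30, the 5 medians were all above 0.

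**Figure D2:**
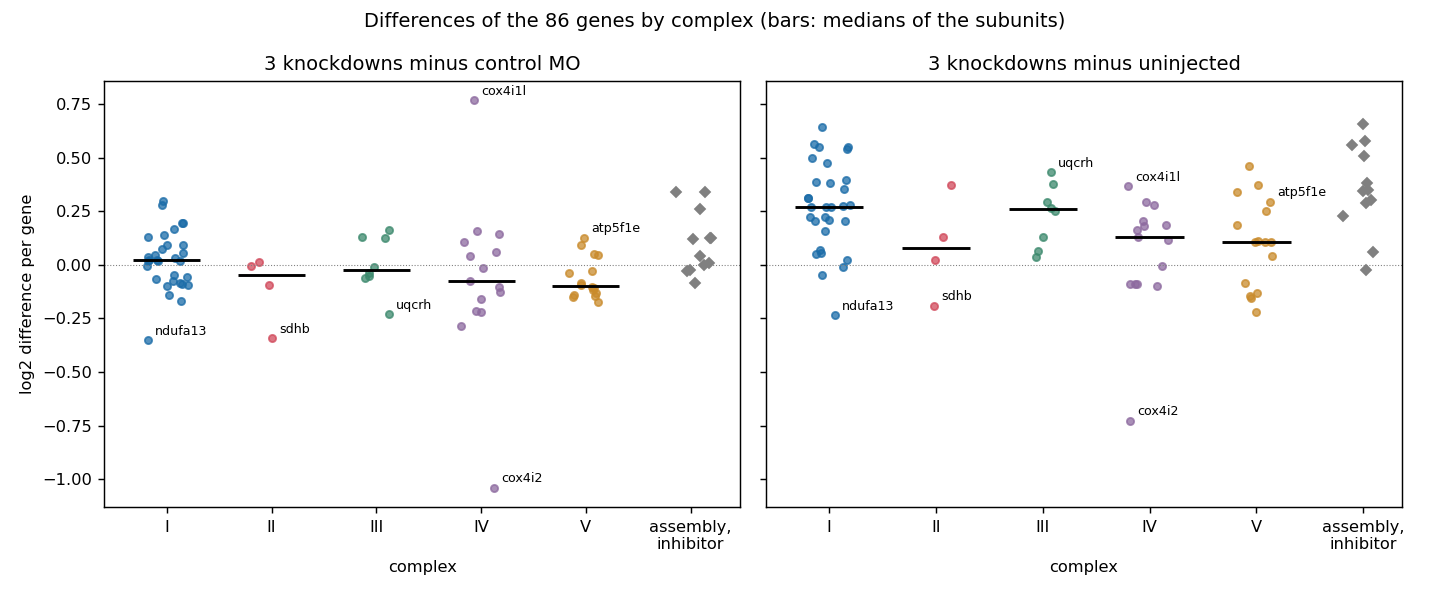
Log2 difference of each of the 86 genes, 3 knockdowns minus control MO on the left and 3 knockdowns minus uninjected on the right, by complex, with bars at the medians of the subunits and grey diamonds for the 12 other members. The isoforms cox4i1l and cox4i2 lie at 0.77 and -1.04 on the left, outside the range of the other subunits, and on the right 28 of 31 complex I subunits lie above 0.

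In becn1 MO hearts complex V had a median of -0.21 with 2 of 16 subunits above 0 (53.4% of all probe sets). Below both control MO arrays on all 3 becn1 arrays lay 7 of 16 (8.2% of all probe sets). Without becn1 3 it was -0.12. Complexes I to IV had medians of -0.09, -0.17, -0.06 and -0.08 there. The order of the complexes turned on single arrays, since complex II had -0.27 without becn1 1 and -0.06 without becn1 3, and complex I had 0.03 without becn1 3. The complex V and complex II medians passed the pooled SD of their complex, and the other 3 did not. In atg7 MO hearts complex I was the highest at 0.19, while complexes II to V had 0.04, 0.10, -0.03 and 0.05. Of the complex I subunits 22 of 31 were above 0 (51.9% of all probe sets). Above both control MO arrays lay 11 of 31 (23.8% of all probe sets). The complex I value passed its pooled SD of 0.174, which is a spread of array medians and not of this difference. As group means of the array medians, complex I stood at 0.18 in atg7 MO and 0.06 in control MO hearts. Without atg7 2 the complex I median difference was 0.02. That array had the GAPDH 3'/5' ratio of 5.98, and the part of RNA quality in the result was not tested. In atg5 MO hearts the 5 medians were 0.01, -0.11, -0.05, -0.01 and -0.04, of which that of complex II passed its pooled SD. No test was made between complexes.

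Against uninjected hearts the 3 knockdowns had medians of 0.27 in complex I, 0.08 in II, 0.26 in III, 0.13 in IV and 0.11 in V, and control MO hearts had 0.26, 0.19, 0.15, 0.14 and 0.16. The pooled SD was passed in complexes I and III by the 3 knockdowns, and in I, II and V by control MO hearts. Within complex I the accessory subunits named ndufb and ndufc, most of which belong to the membrane arm, were all above 0 in the 3 knockdowns (10 of 10, median 0.32), and so were they in control MO hearts (10 of 10, median 0.31). The 5 core subunits on the array, which hold the flavin and iron-sulfur centres, had medians of 0.07 in the 3 knockdowns and 0.04 in control MO hearts. They were split in the 3 knockdowns, with ndufv2 at 0.40 and ndufs7 at 0.39 but ndufs1, ndufv1 and ndufs8a at 0.07, 0.02 and -0.05. In complex V the 4 subunits of the catalytic F1 head had -0.02 in the 3 knockdowns, beside 0.26 for the 6 small membrane subunits. Both sets were mixed, from -0.15 (atp5f1b) to 0.29 (atp5f1e) and from -0.22 (atp5meb) to 0.46 (atp5mea). Without uninjected 3 complex IV had -0.05 in the 3 knockdowns and -0.02 in control MO hearts.

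Subunit IV of cytochrome c oxidase showed the widest departures, in opposite directions for its isoforms. The level of cox4i2, an isoform that in mammals is induced by low oxygen and abundant in lung, was 8.78, 9.13 and 9.28 on the atg5 arrays, 6.77, 8.88 and 8.68 on the becn1 arrays, 7.14 and 8.04 on the atg7 arrays, 9.55 and 9.04 on the control MO arrays, and 9.06, 8.87 and 9.02 on the uninjected arrays. The becn1 and atg7 arrays all lay below both control MO arrays, and becn1 1 and atg7 1 were lowest of all 13. The difference from control MO was -1.18 (SE 0.49, adjusted p = 0.909 by limma) in becn1 MO hearts, -1.70 (SE 0.54, adjusted p = 0.409) in atg7 MO hearts, and -0.23 (SE 0.49) in atg5 MO hearts.

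The 3 knockdowns together had a cox4i2 difference of -1.04 from control MO (SE 0.43, adjusted p = 0.872 by limma) and -0.73 from uninjected hearts (SE 0.37, adjusted p = 0.24). Leaving out 1 array at a time gave -1.30 to -0.79 for the first, and it was -0.61 without the 3 knockdown arrays numbered 1. The atg7 difference was called when becn1 1 was left out and under no other omission of 1 array. Array becn1 1 belongs to neither group of that comparison. It enters only through the normalization, the filter and the shared estimate of the spread. Markers of several cell types were extreme on becn1 1 and atg7 1, the arrays lowest in this gene. The summed intensity of 13 of 16 listed photoreceptor genes was 1331, 2170 and 2307 on the atg5 arrays, 154, 855 and 1708 on the becn1 arrays, 217 and 628 on the atg7 arrays, 5943 and 3905 on the control MO arrays, and 7488, 2964 and 5883 on the uninjected arrays. The lowest sums were on becn1 1 and atg7 1, the arrays lowest in cox4i2, and of the list opn1lw1 and pde6a were under 16 on every array, none being at 0. The same arrays had the lowest sums of 10 of 13 neuron and glia genes, 4779 on becn1 1 and 4541 on atg7 1, against 6207 to 9493 on the others. They had the highest sums of 13 of 15 cell cycle genes, 9472 and 9067, against 4442 to 7653 on the others. Their cardiomyocyte sums, 5454 and 7396, were the highest of the 13, with atg5 1 next at 5444. Their sums of 10 of 12 epidermis genes, 13112 and 13176, were the lowest. Their sums of 7 of 9 erythrocyte genes, 19215 and 18830, were the highest. Other lists were not extreme on both arrays. Liver and yolk sums were 13631 on becn1 1 and 16426 on atg7 1, within the range of the others. Skeletal muscle was lowest on becn1 1 (3742) but not on atg7 1 (5316). Leukocyte genes were highest on atg7 1 (4757) but not on becn1 1 (3889). Across the 3 atg5 arrays the photoreceptor sums and cox4i2 rose in the same order. There the sums lay below those of all control MO and uninjected arrays, while the cox4i2 levels overlapped the uninjected ones. The part of these cell types in the result was not tested.

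The level of cox4i1l, annotated as like the common isoform of subunit IV, was 8.36, 6.96 and 7.47 on the atg5 arrays, 7.90, 8.15 and 7.78 on the becn1 arrays, 8.35 and 8.07 on the atg7 arrays, 7.17 and 7.13 on the control MO arrays, and 7.20, 8.21 and 7.24 on the uninjected arrays. All becn1 and atg7 arrays lay above both control MO arrays, 2 of 3 uninjected arrays lay below all becn1 and atg7 arrays, and uninjected 2 lay within their range. The difference from control MO was 0.79 (SE 0.37, adjusted p = 0.909 by limma) in becn1 MO hearts, 1.06 (SE 0.41, adjusted p = 0.436) in atg7 MO hearts and 0.45 (SE 0.37) in atg5 MO hearts. Together the knockdowns stood at 0.77 (SE 0.33, adjusted p = 0.872) against control MO and 0.37 against uninjected hearts. Control MO hearts were at -0.40 against uninjected hearts (SE 0.37), and at -0.07 without uninjected 2.

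**Figure D3:**
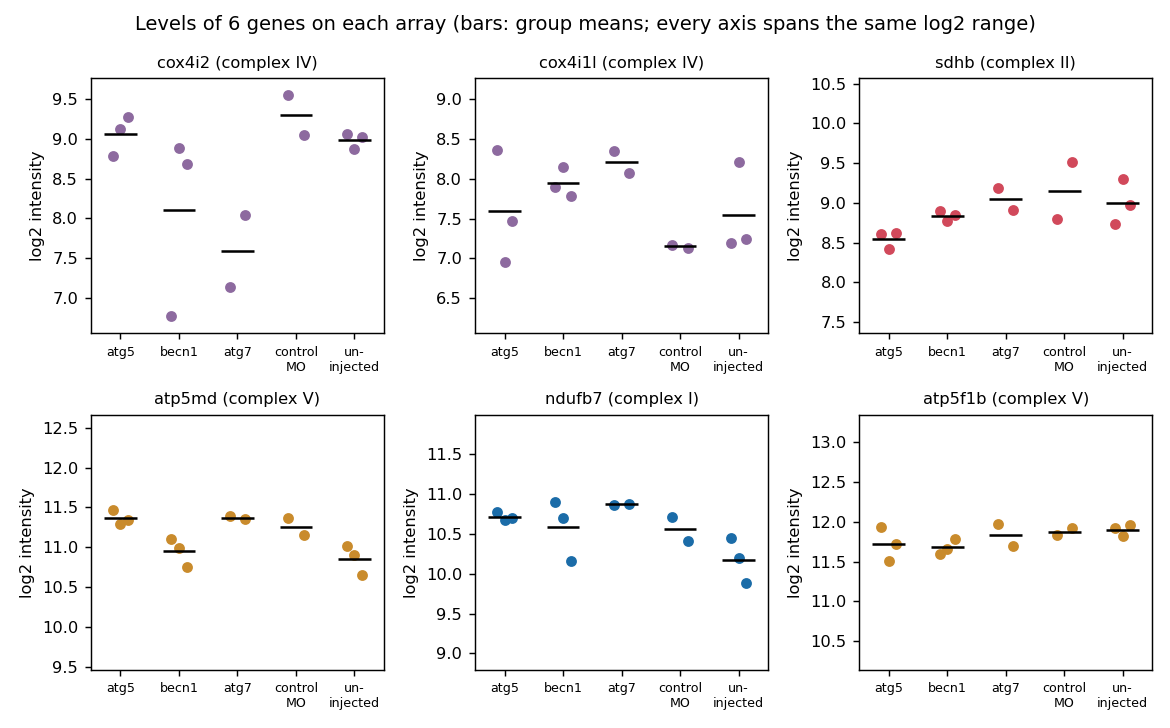
Level (log2 intensity after quantile normalization) of cox4i2, cox4i1l, sdhb, atp5md, ndufb7 and atp5f1b on each of the 13 arrays, with bars at the group means and the same log2 span on every axis. The cox4i2 values run from 6.77 on becn1 1 to 9.55 on control MO 2, while atp5f1b stays between 11.50 and 11.98.

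Elsewhere in complex IV the differences were smaller. The level of cox6a1, the common isoform of subunit VIa, was 10.02, 9.91 and 10.06 on the atg5 arrays, 9.73, 10.25 and 9.81 on the becn1 arrays, 10.15 and 10.54 on the atg7 arrays, 10.25 and 10.50 on the control MO arrays and 10.32, 9.96 and 10.26 on the uninjected arrays. The atg5 and becn1 arrays lay below both control MO arrays, becn1 2 only just, and overlapped the uninjected ones. Its difference from control MO was -0.29 in the 3 knockdowns (SE 0.16; -0.41 without control MO 2 and -0.16 without control MO 3) and -0.45 in becn1 MO hearts (SE 0.19, adjusted p = 0.909 by limma). For cox5ab, a gene for subunit Va, the becn1 difference was -0.35 (SE 0.14, adjusted p = 0.909). Its direction turned on the deposited scale, where it was 0.03, as that of cox6a1 did in the 3 knockdowns (0.03).

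In complex II, sdhb, the iron-sulfur subunit of succinate dehydrogenase, stood farthest from the others. Its level was 8.60, 8.41 and 8.63 on the atg5 arrays, 8.89, 8.77 and 8.85 on the becn1 arrays, 9.18 and 8.91 on the atg7 arrays, 8.79 and 9.51 on the control MO arrays, and 8.73, 9.31 and 8.97 on the uninjected arrays. All 3 atg5 arrays were below every other array. The difference of atg5 MO from control MO was -0.61 (SE 0.23, unadjusted p = 0.0189, adjusted p = 1 by limma), and it was -0.97 without control MO 2 and -0.25 without control MO 3. The catalytic subunit sdha was at -0.19 (SE 0.16) in the same comparison, with its 3 arrays also below both control MO arrays, while the membrane anchors sdhc and sdhdb were at 0.06 and -0.03.

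Complex III varied with the main order of arrays except for cyc1. Its hinge protein gene uqcrh had 9.88, 9.76 and 9.89 on the atg5 arrays, 9.88, 9.76 and 9.06 on the becn1 arrays, 9.78 and 9.82 on the atg7 arrays, 9.93 on control MO 2 and slightly more on control MO 3, the highest of the 13 arrays, and 9.48, 9.62 and 8.82 on the uninjected arrays. All 8 knockdown arrays lay below both control MO arrays and both control MO arrays above all 3 uninjected arrays. The differences were -0.23 in the 3 knockdowns against control MO (SE 0.22, adjusted p = 0.911 by limma) and 0.66 in control MO against uninjected hearts (SE 0.25, adjusted p = 1). The subunit uqcrb, at 0.16 (SE 0.19) in the 3 knockdowns against control MO, was the other member farthest from the complex median. The gene cyc1, for the cytochrome that hands electrons to cytochrome c, had 9.92 to 10.44 on the atg5 arrays, 10.30 to 10.49 on the becn1 arrays, 10.28 and 10.32 on the atg7 arrays, 10.26 and 10.42 on the control MO arrays and 10.19 to 10.30 on the uninjected arrays.

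In complex I, ndufa13 (known also as GRIM-19) and ndufa3 lay farthest below and above the complex. The level of ndufa13 was 8.94, 8.92 and 9.01 on the atg5 arrays, 8.62, 9.30 and 8.70 on the becn1 arrays, 8.53 and 8.67 on the atg7 arrays, 9.20 and 9.12 on the control MO arrays, and 9.29, 9.28 and 8.56 on the uninjected arrays. Of the 8 knockdown arrays 7 lay below both control MO arrays, the exception being becn1 2, and uninjected 3 was as low as the atg7 arrays. Its differences were -0.35 in the 3 knockdowns (SE 0.21, adjusted p = 0.872 by limma) and -0.56 in atg7 MO hearts (SE 0.27, adjusted p = 0.494). The 3 knockdowns had an ndufa3 difference of 0.30 (SE 0.30) from control MO, with overlapping arrays. Core subunit ndufs7 stood at 0.42 (SE 0.19) in atg7 MO hearts, and ndufs8a at -0.24 (SE 0.18; -0.13 without control MO 2) in control MO against uninjected hearts.

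The smallest p of a complex I member belonged to ndufb7, an accessory subunit of the membrane arm, in the 3 knockdowns against uninjected hearts. It had 10.78, 10.67 and 10.70 on the atg5 arrays, 10.90, 10.70 and 10.15 on the becn1 arrays, 10.87 and 10.88 on the atg7 arrays, 10.71 and 10.41 on the control MO arrays, and 10.45, 10.19 and 9.88 on the uninjected arrays. All knockdown arrays but becn1 3 lay above every uninjected array, and the control MO arrays overlapped both. The difference was 0.55 (SE 0.15, adjusted p = 0.0736 by limma). The settings that brought it past the threshold included centring the arrays on their medians (adjusted p = 0.0395) and leaving out becn1 3. In both settings more of all probe sets were called as well. Without becn1 3 there were 876 calls, against 126 with all arrays and quantile normalization.

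In complex V the smallest p of the 3 knockdowns against uninjected hearts belonged to atp5md, a small membrane subunit linked in mammals to the pairing of ATP synthases (also called DAPIT). Its level was 11.47, 11.29 and 11.34 on the atg5 arrays, 11.10, 10.98 and 10.76 on the becn1 arrays, 11.39 and 11.35 on the atg7 arrays, 11.36 and 11.15 on the control MO arrays, and 11.01, 10.90 and 10.65 on the uninjected arrays. The atg5, atg7 and control MO arrays all lay above the uninjected arrays, and the becn1 arrays lay below the control MO arrays and overlapped the uninjected ones. The 3 knockdowns differed from uninjected hearts by 0.37 (SE 0.10, adjusted p = 0.0699 by limma). With arrays centred on their medians the adjusted p by limma was 0.0358, and more of all probe sets were called as well. Control MO differed from uninjected hearts by 0.40 (SE 0.13, adjusted p = 1), and becn1 MO from control MO hearts by -0.31 (SE 0.13, adjusted p = 0.909).

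The peripheral stalk subunit atp5pf had the smallest p of the becn1 comparison. It had 11.72, 11.94 and 11.59 on the becn1 arrays, against 12.24 and 12.07 on the control MO arrays and 11.99, 11.98 and 11.73 on the uninjected arrays. Each becn1 array lay below both control MO arrays, and the difference was -0.40 (SE 0.12, unadjusted p = 0.0046, adjusted p = 0.804 by limma). The atg5 and atg7 differences of atp5pf were -0.08 and 0.05. In atg5 MO hearts the F1 subunits epsilon (atp5f1e) and delta (atp5f1d) lay on opposite sides of control MO, at 0.34 (SE 0.19) and -0.33 (SE 0.16), both with an adjusted p of 1. The atp5f1d difference was -0.55 without control MO 2 and -0.11 without control MO 3. The membrane subunit atp5mf was at 0.49 (SE 0.17) in control MO against uninjected hearts, and atp5mj, a small proteolipid, at 0.09 (SE 0.11) in the 3 knockdowns against control MO.

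The 9 assembly factors, proteins that help build the complexes without staying in them, lay higher in median than the 74 subunits together. Their median was 0.12 in the 3 knockdowns against control MO (6 of 9 above 0) and 0.38 against uninjected hearts (9 of 9). In control MO against uninjected hearts it was 0.25 (9 of 9), not above the 0.26 of the complex I subunits. To complex I belong 6 of the 9. The level of ndufaf6 was 7.22, 6.67 and 6.74 on the atg5 arrays, 7.24, 7.25 and 6.57 on the becn1 arrays, 7.31 and 6.89 on the atg7 arrays, 6.64 and 6.68 on the control MO arrays, and 6.67, 6.41 and 5.96 on the uninjected arrays. Only becn1 3 among the knockdown arrays lay below both control MO arrays, and uninjected 3 was lowest. Its difference was 0.36 (SE 0.28) in becn1 MO against control MO hearts and 0.66 (SE 0.21, adjusted p = 0.0959 by limma) in the 3 knockdowns against uninjected hearts.

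The assembly factors ndufaf4 and ndufaf1 were at 0.34 (SE 0.24) in the 3 knockdowns and 0.40 (SE 0.21) in atg5 MO hearts, each against control MO. A second, weaker probe set of ndufaf1 gave -0.25 in the 3 knockdowns, where the one used gave 0.26, so its direction depends on the probe set. In all, 6 member genes had more than 1 probe set. Those of ndufab1a gave 0.26, -0.07 and -0.20 in the same comparison. The gene cox7a2l, which helps complexes III and IV associate, had 8.10, 8.05 and 8.24 on the atg5 arrays, 8.60, 8.31 and 8.08 on the becn1 arrays, 8.70 and 8.35 on the atg7 arrays, 8.27 and 8.13 on the control MO arrays and 7.97, 7.99 and 7.99 on the uninjected arrays. All injected groups lay above the uninjected arrays, with a difference of 0.34 (SE 0.14, adjusted p = 0.161 by limma) for the 3 knockdowns.

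Zebrafish keep pairs of genes for some subunits, and their members did not always vary alike. Over the 13 arrays the Pearson correlation was 0.60 between uqcrc2a and uqcrc2b, 0.43 between cox5aa and cox5ab, 0.22 between ndufab1a and ndufab1b, 0.14 between ndufa4a and ndufa4b, -0.03 between atp5mea and atp5meb, -0.06 between atp5if1a and atp5if1b, and -0.24 between atp5mc3a and atp5mc3b. The subunit e genes lay on opposite sides of uninjected hearts in the 3 knockdowns, with atp5mea at 0.46 (SE 0.20) and atp5meb at -0.22 (SE 0.11). Of the inhibitors of ATP synthase, atp5if1a was at 0.23 and atp5if1b at -0.03. Paralogs can share probe sequence, and cross-hybridization between them was not tested.

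Likeness to the rest was described by the Pearson correlation of each subunit, over the 13 arrays, with the median of the other 73 subunits. These arrays share the group differences and the array-wide order given above. The median of the 74 correlations was 0.75, with a range of -0.41 to 0.96, while the median over 10232 other probe sets was -0.01. Pairs of subunits of the same complex had a median of 0.52 (724 pairs) and pairs from different complexes 0.41 (1977 pairs). Against the other subunits of their own complex the medians were 0.83 in complex I, -0.18 in II, 0.75 in III, 0.55 in IV and 0.70 in V. The highest in each were ndufa2 (0.98), sdhb (-0.02), uqcrq (0.94), cox7c (0.76) and atp5mea (0.88). Complex II had only 4 subunits, so each was set against a median of few genes. Of the 4, sdhc (0.84) and sdhdb (0.69) followed the other 73 subunits, while sdha (-0.06) and sdhb (-0.12) did not.

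**Figure D4:**
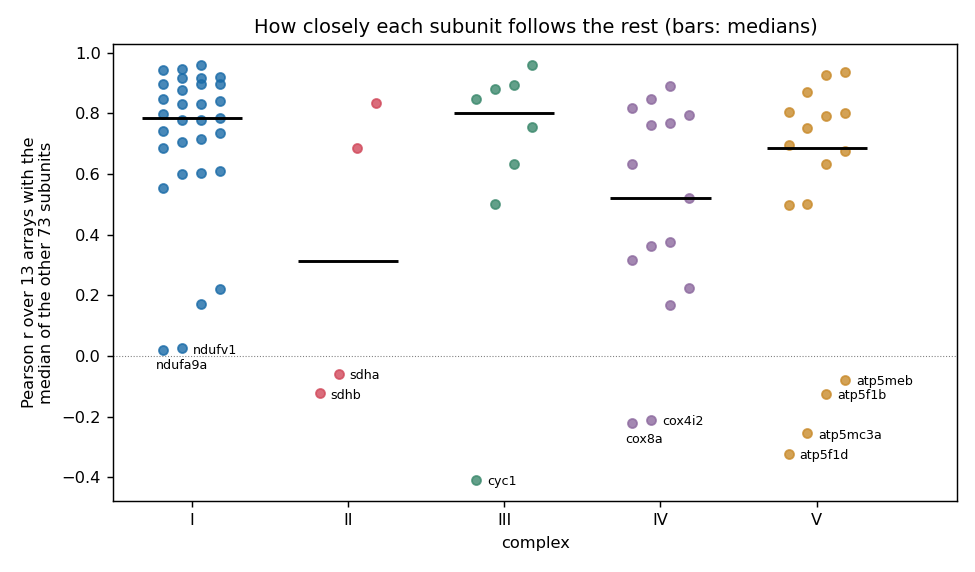
Pearson correlation over 13 arrays of each subunit gene with the median of the other 73 subunits, by complex, with bars at the medians of each complex. The 11 named genes lie below 0.1, led by cyc1 at -0.41, and 55 of 74 lie above 0.5.

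The 11 subunits with a correlation under 0.1 included central parts of their enzymes. They were cyc1 of complex III (-0.41), the ATP synthase genes atp5f1d (-0.32), atp5mc3a (-0.25), atp5f1b (-0.13) and atp5meb (-0.08), cox8a (-0.22) and cox4i2 (-0.21) of complex IV, sdhb (-0.12) and sdha (-0.06) of complex II, and ndufa9a (0.02) and ndufv1 (0.03) of complex I. The products of ndufv1, sdha, cyc1 and atp5f1b bind NADH, bind succinate, carry heme and make ATP. Other core, catalytic or F1 subunits followed the rest, such as ndufv2 (0.83), ndufs7 (0.74), atp5f1c (0.80) and uqcrfs1 (0.50), while ndufs8a had 0.17. Several of the 11 varied little. The level of cox8a had an SD of 0.0928 over the 13 arrays, ndufv1 0.110 and atp5mc3a 0.115, whereas ndufa2, the subunit most like the rest, had 0.385. Against their own complex the lowest were ndufv1 (-0.01) and ndufa9a (0.04) in I, sdhc (-0.41) and sdha (-0.25) in II (sdhc followed the other 73 subunits at 0.84), cyc1 (-0.33) and the Rieske protein uqcrfs1 (0.48) in III, cox8a (-0.07) and cox4i2 (-0.03) in IV, and atp5f1d (-0.25) and atp5mc3a (-0.20) in V.

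The accessory subunit ndufa2 shows the common order. It had 10.57, 10.34 and 10.45 on the atg5 arrays, 10.40, 10.51 and 9.63 on the becn1 arrays, 10.65 and 10.79 on the atg7 arrays, 10.50 and 10.26 on the control MO arrays, and 10.26, 9.95 and 9.50 on the uninjected arrays. Against it, the catalytic ATP synthase subunit atp5f1b had 11.94, 11.50 and 11.72 on the atg5 arrays, 11.60, 11.66 and 11.79 on the becn1 arrays, 11.98 and 11.70 on the atg7 arrays, 11.83 and 11.93 on the control MO arrays, and 11.92, 11.82 and 11.97 on the uninjected arrays. Array uninjected 3 was lowest for ndufa2 and 1 of the 2 highest for atp5f1b. The probe sets of atp5f1b and atp5mc3a share the stem of their names, which marks a common sequence cluster of the array design, and they correlated at 0.72. They may not be separate measurements.

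The probe sets most like the subunit median, among genes that are no members, were sub1b (0.95), timm9 of protein import (0.95), the mitochondrial elongation factor tufm (0.95), rbfa (0.94) and the complex IV assembly factor cox14 (0.94). The rest of the 10 highest were mrpl40, cdc123, tomm7, dnajc19 and mrpl28.

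Lists of genes that build mitochondria had medians above 0 against uninjected hearts. Of 58 mitochondrial ribosome genes kept, 0 were called in the 3 knockdowns against uninjected hearts, 44 had an unadjusted p under 0.05 and all 44 were higher, beside 15% of all probe sets. Their median was 0.45, with 0.34 in control MO against uninjected hearts and 0.14 in the 3 knockdowns against control MO. The 22 genes of mitochondrial protein import had medians of 0.34, 0.26 and 0.09 in these comparisons, the 17 assembly factors outside the name rule 0.36, 0.29 and 0.08, and 9 regulators of mitochondrial biogenesis 0.25, 0.16 and 0.09. No gene of these lists was called. By the smallest p against control MO, the examples are mrps31 at 0.48 (SE 0.18), timm8b at 0.51 (SE 0.32), timmdc1 at 0.44 (SE 0.16) and ppargc1b at -0.57 (SE 0.22).

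Lists of fuel use and mitophagy had medians nearer to or below 0. Medians in the 3 knockdowns against uninjected hearts, in control MO against uninjected hearts and in the 3 knockdowns against control MO were -0.23, -0.20 and -0.00 for 25 glycolysis genes, -0.09, -0.01 and -0.15 for 18 genes of the TCA cycle, -0.01, 0.05 and -0.07 for 19 genes of fatty acid oxidation, and 0.09, -0.01 and 0.13 for 11 mitophagy genes. No gene of these was called. The examples against control MO are pklr (pyruvate kinase of liver and red cells) at -1.04 (SE 0.35), mdh1ab at -0.62 (SE 0.25), cpt1b (fatty acid entry into mitochondria) at -0.37 (SE 0.25) and phb at 0.40 (SE 0.16).

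**Figure D5:**
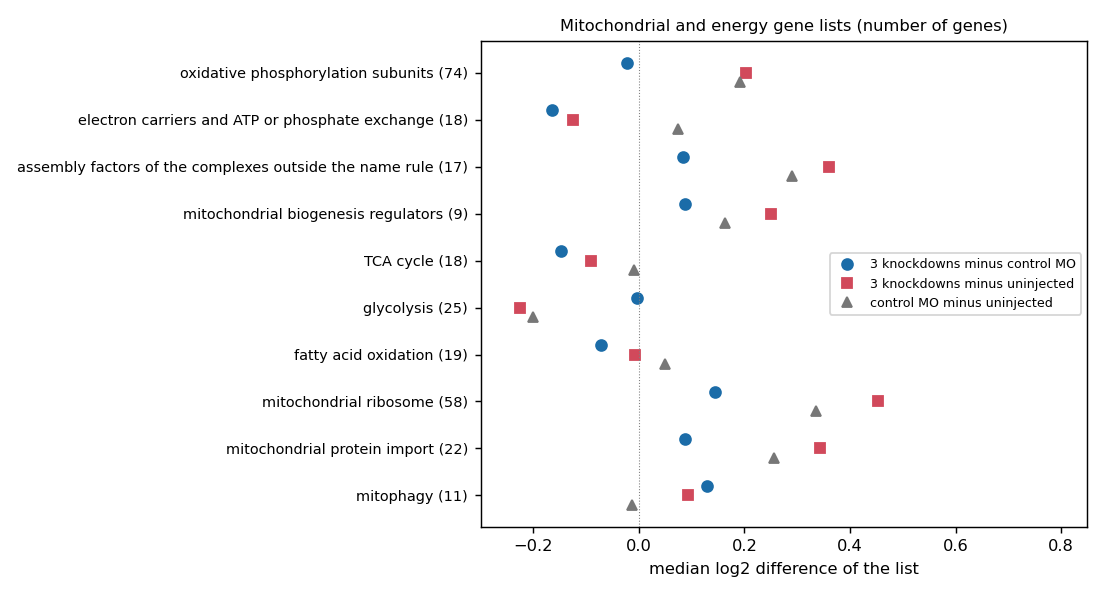
Median log2 difference of the 74 subunits and of 9 lists of mitochondrial and energy genes, with the number of genes kept, for 3 knockdowns minus control MO (circles), 3 knockdowns minus uninjected (squares) and control MO minus uninjected (triangles). The mitochondrial ribosome has the highest median against uninjected hearts, at 0.45 and 0.34, and glycolysis the lowest, at -0.23 and -0.20.

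One gene of the lists was called, among 18 electron carriers and carriers of ATP or phosphate (medians -0.12, 0.07 and -0.16 in the same order of comparisons). The phosphate carrier slc25a3a fell in the 3 knockdowns against uninjected hearts. Its level was 4.96, 6.12 and 5.76 on the atg5 arrays, 3.76, 4.50 and 5.75 on the becn1 arrays, 4.18 and 4.74 on the atg7 arrays, 7.36 and 6.85 on the control MO arrays, and 7.77, 6.34 and 7.21 on the uninjected arrays. All 8 knockdown arrays lay below all 5 control arrays. The difference was -2.19 (SE 0.41, adjusted p = 0.0467 by limma) against uninjected hearts and -2.19 (SE 0.47, adjusted p = 0.679) against control MO.

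The slc25a3a call depended on the arrays and on the processing. It held in 3 of the 13 omissions of 1 array, with an adjusted p of 0.0102 to 0.202. It was lost with no intensity filter (adjusted p = 0.0564 by limma). The same went for only the groups compared in the fit (0.0653) and for no trend in the prior variance (0.0534). It held in the 8 other settings in which the comparison included the gene. Of these, the mean of a gene's probe sets, the ndufa4 genes in complex I and the inclusion of all members left its own values unchanged. Those settings could not test the call, and the filter on all 13 arrays did not keep the gene. The intensity on becn1 1 was under 16, and with such values set to 16 the difference from uninjected hearts was -2.17 (SE 0.39, adjusted p = 0.0304). The cone transducin gene gnat2, a photoreceptor marker, had 7.24, 7.75 and 8.43 on the atg5 arrays, 3.64, 6.51 and 7.40 on the becn1 arrays, 3.84 and 5.68 on the atg7 arrays, 9.62 and 9.04 on the control MO arrays, and 9.99, 8.58 and 9.95 on the uninjected arrays, so both genes were lowest on becn1 1 and atg7 1. Its part in the slc25a3a result was not tested. The paralog slc25a3b was at 0.07 (SE 0.17) against control MO and -0.13 (SE 0.15) against uninjected hearts.

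Between the knockdowns 0 members were called by limma, in atg5 MO against becn1 MO hearts (0% of all probe sets), atg7 MO against atg5 MO hearts (0.0194%) or atg7 MO against becn1 MO hearts (0.0194%). Members with an unadjusted p under 0.05 numbered 4 of 86 in atg5 MO against becn1 MO hearts (6.11% of all probe sets), 6 in atg7 MO against atg5 MO hearts (11.8%) and 6 in atg7 MO against becn1 MO hearts (4.36%). The median over the 74 subunits was 0.12, 0.11 and 0.21 in these contrasts, beside 0.00, -0.00 and -0.00 over all probe sets. Among the 8 knockdown arrays alone, with the replicate number as a block, the same medians were 0.12, 0.04 and 0.17, and limma called 0 members and 0, 17 and 1 of all probe sets. Without the block it called 0 in each. With the block 5, 5 and 4 members had an unadjusted p under 0.05, but no share of all probe sets was counted beside them.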

How the data were processed

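The deposited values are linear intensities that the authors obtained with MAS5 from 1-colour Affymetrix arrays, per the submitters' processing notes. No version or scaling target was given in the sources used here. Trimmed mean intensities differed 2.13-fold between arrays, so log2 intensities were quantile normalized with no pseudocount. From 15617 probe sets, 115 controls were removed. Gene names came from the annotation of the platform (10795 probe sets with 1 symbol, 135 with several, 4572 with none). Probe sets above the 40th percentile of their array on at least 2 of 13 arrays were kept (10307 of 15502, 66.5%). All group means were fitted at once with limma 3.58.1 in R 4.3.3, with a trended prior variance. The fit had 8 residual and 4.61 prior degrees of freedom. P-values are two-sided, with Benjamini-Hochberg adjustment across everything kept. The procedure was tested on simulated data with independent noise, which lacked the shifts that genes share on an array. The number of arrays limits the precision. By deviations from group means, all 7 same-number pairs of knockdown arrays correlated over 0.1 (0.12 to 0.62). Of the pairs with a control array 5 of 15 did (-0.41 to 0.41). Knockdown pairs of different number ran from -0.62 (becn1 1 with atg7 2) to 0.34 (atg5 2 with becn1 3). The -0.62 is no separate value, since the 2 atg7 arrays mirror each other and becn1 1 had 0.62 with atg7 1. Between atg5 and becn1 the arrays numbered 1 had 0.42. Those numbered 2 had 0.12 and those numbered 3 had 0.14, less than atg5 3 with becn1 2 (0.21). Pairing by the numbers 2 and 3 was therefore not shown. A replicate block was used beside the contrasts between knockdowns, a choice made after seeing the data.

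The members and lists were chosen with earlier results of these data known. Members were named if they were among the 2 farthest from the median of their complex, the 2 least or the 1 most like it, or the 2 smallest p in either direction of a comparison, or formed a paralog pair. In each list, called genes or else the smallest p against control MO were named. All genes listed under an unadjusted 0.05 or for low likeness, and cox7a2l, atp5f1b, slc25a3b and gnat2, were also chosen after their values were seen.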

Additional observations from a re-analysis of the deposited data

How the results depend on the processing

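Several fits brought no call of a member and turned no direction among the members named for their smallest p. They used no filter, a filter on all 13 arrays, intensities under 16 set to 16, or only the groups compared. Others used no variance trend, the mean of a gene's probe sets, or the ndufa4 genes in complex I. Most of these settings could not test directions, medians or subunit counts. No filter, intensities under 16 set to 16, only the groups compared and no trend left the members' differences unchanged by design. Only their p-values could move. The ndufa4 setting could move only the medians of complexes I and IV. These moved by less than the pooled SD of their array medians. So did all medians under the filter on all 13 arrays and the mean of a gene's probe sets. Subunit counts there stayed within a set tolerance, so values could shift within these limits. The slc25a3a call was lost with no filter (adjusted p = 0.0564 by limma), only the groups compared (0.0653) and no trend (0.0534). On the intensities as deposited the subunit medians were 0.29 in atg5 MO, 0.24 in becn1 MO, 0.38 in atg7 MO and 0.31 in the 3 knockdowns against control MO, and -0.090 in control MO against uninjected hearts, with 71, 70, 72, 71 and 24 of 74 subunits above 0. Complexes I to V stood at 0.34, 0.26, 0.32, 0.26 and 0.24 in the 3 knockdowns against control MO. There cox5ab in becn1 MO hearts (0.030) and cox6a1 in the 3 knockdowns (0.034) turned direction. That scale lacks any alignment of the arrays, so these medians and counts carry the shift of all probe sets given above. With arrays centred on their medians, 35 subunits in becn1 MO and 52 in the 3 knockdowns lay above control MO, and against uninjected hearts the median was 0.37 and 2 members were called, atp5md and ndufb7. With both control groups as 1, 53 subunits were above 0 in atg5 MO, 37 in becn1 MO and 58 in the 3 knockdowns, and complexes III and V stood at 0.15 and 0.024. No share of all probe sets above 0 was set beside the subunit counts of this section. Nor was the median of all probe sets set beside the centred median of 0.37. The causes of these changes were not tested.

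Whether the replicate numbers pair knockdown with control arrays, or pair the knockdown arrays numbered 2 and 3, could not be settled. Of same-number pairs with a control array, 5 of 15 correlated over 0.1. In a group of 2 arrays the deviations mirror each other, as with control MO 2 and 3 against uninjected 1 (0.50 and -0.50). With the replicate block, 11 subunits were above 0 in becn1 MO hearts, complex II stood at -0.17 in the 3 knockdowns against control MO, and 2 members were called against uninjected hearts, atp5md and ndufb7. Leaving out 1 array at a time gave 11 to 33 subunits above 0 in becn1 MO hearts. It gave 0 to 1 members called in atg7 MO hearts (cox4i2, without becn1 1, an array of neither group compared). The count over all probe sets in that setting is not given here. In the 3 knockdowns against uninjected hearts 0 to 7 members were called. The 7 came without becn1 3, where 876 of all probe sets were called. They were atp5md, atp5mea, ndufa2, ndufa5, ndufaf6, ndufb7 and sdhaf2. Over all probe sets that comparison had 126 calls, and 0 to 876 with 1 array left out (0 without uninjected 1 or uninjected 3, 876 without becn1 3). It had 84 as deposited, 488 centred, 24 with no filter, 14 with only the groups compared, 29 with no trend and 327 with the block, which also gave 28 in the 3 knockdowns against control MO where the fit without it gave 0. Without the 3 knockdown arrays numbered 1, a setting chosen after seeing the data, it had 203.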
